A study of Homo sapiens with 18 samples.

Results

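The autosomal H3K27me3 domains of U937 cells were compared between a SUV39H1 knockout and its control. All 4 H3K27me3 domain lists of these 2 groups were used, of 14 libraries with a deposited file. sgControl replicates 1 and 2 held 10324 and 9301 autosomal domains, and the knockout replicates 1 and 2 held 14111 and 14306. U937 is an established human myeloid line used as a model of acute myeloid leukaemia (AML). Every group was grown from it without a further treatment named in the labels. sgControl denotes the control cells, SKO the SUV39H1 single knockout and DKO the knockout of SUV39H1 and SUV39H2. The labels do not say whether a knockout line is a clone or a pool, nor that the 2 replicates of a group were independent cultures. The spread between replicates may therefore be technical. The immunoprecipitation used 10 ug of human chromatin, 0.3 ug of Drosophila S2 chromatin as spike-in and 2 ug of antibody in each group. No spike-in factor was used here, and whether spike-in scaling entered the deposited domain lists is unknown.

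H3K27me3 is set by Polycomb repressive complex 2, whose catalytic subunit is EZH2 and whose core also holds EED and SUZ12. It marks silent developmental regulators in most cell types and also spreads over wide stretches of gene-poor chromatin. SUV39H1 sets H3K9me3, the mark of constitutive heterochromatin, with SUV39H2 as its close relative and SETDB1 as another H3K9 methyltransferase that is recruited to zinc finger gene clusters and transposable elements. The comparison asked where H3K27me3 was called once SUV39H1 was missing.

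In the knockout a larger part of the autosomes was marked, in more and smaller domains. Covered length was 1022 and 1027 Mb in the sgControl libraries and 1142 and 1133 Mb in the SKO libraries. The SKO libraries both lay above both controls, and the mean difference of 113 Mb exceeded the SD within each group (3.54 Mb in sgControl and 6.46 Mb in SKO, n = 2). With 2 libraries against 2, an exact two-sided permutation test cannot give a p below 0.333, so such group values are set against their spread.

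The change in width was not the same in every size class. Domains of up to 20 kb numbered 3155 and 2283 in sgControl and 4843 and 4869 in SKO. Domains of 20 to 100 kb numbered 4759 and 4634 against 6480 and 6680. At the other end, domains over 500 kb were fewer in SKO, 328 and 327 against 380 and 396. These very wide domains held 31.1% and 33.7% of the covered length in sgControl and 22.7% in each SKO library. The classes over 500 kb therefore gave up length, from a mean of 332 Mb (SD 20.1, n = 2) to 258 Mb (SD 1.18, n = 2), while every narrower class held more.

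**Figure D1:**
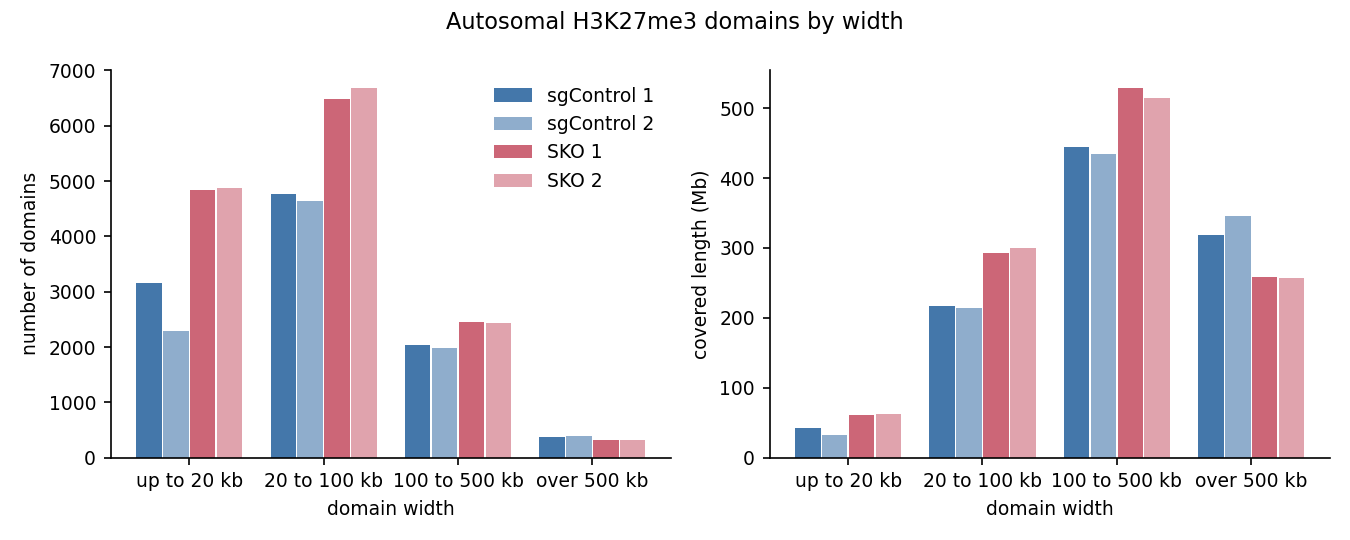
Number of autosomal H3K27me3 domains (left) and their covered length in Mb (right) in 4 width classes, 1 bar per library. In each class up to 500 kb both SKO bars stand above both sgControl bars, and over 500 kb both stand below them.

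The N50 width, the width at which domains of that size or wider hold 50% of the covered length, was 281.6 and 303.2 kb in sgControl and 216 and 206.4 kb in SKO. The order of the domain counts depended on the score used to admit domains. When the lowest scored domains were dropped until all 4 lists covered the same length, the difference in domain number turned from 4396 more in SKO to -2107.5, while the N50 stayed 44 kb lower. Reads inside domains were 49.0 M and 47.3 M in sgControl and 67.6 M and 57.2 M in SKO, and whether this read number moved the domain calls was not tested.

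Overlap of the lists showed the same order of distances. The 2 sgControl lists shared 0.914 of their joint length and the 2 SKO lists 0.906, whereas each sgControl list shared between 0.718 and 0.721 with each SKO list. Each control domain was then followed into the SKO lists and, as background, into the other control list. A domain was called split where at least 2 domains of the other list overlapped it, absent where less than 10% of it was covered, and whole where 1 domain covered at least 90% of it.

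Splitting was the most common fate by length. Split domains held 53.2% to 59.0% of the sgControl length over the 4 pairings with SKO, against 27.7% to 38.7% between the control replicates. Whole domains held 31.0% to 37.1% in SKO against 55.5% to 66.6% between replicates. Outright disappearance was small by length, 3.08% to 3.56% against 0.768% to 1.16%. It was concentrated in the narrow domains: of control domains up to 20 kb, 34.6% to 36.1% were absent from SKO, against 13.2% to 19.8% between replicates, and no control domain over 500 kb was absent.

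Among control domains over 500 kb, 71.3% to 77.5% were split in SKO and 31.3% to 46.7% between replicates. Such a domain lay in a mean of 2.84 to 3.38 pieces in SKO and 1.43 to 1.74 pieces in the other control. On average 95.8% to 96.2% of it nevertheless remained covered. The wide domains were thus cut by short openings rather than emptied.

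The openings themselves could be located. Stretches of at least 4 kb that lay inside control domains in both controls and uncovered in both SKO libraries, with SKO domains on either side, numbered 1664, with a median of 4.8 kb and 15.2 Mb in all. Gene bodies filled 34.1% of these openings and 34.5% of the kept length, so the openings did not stand out by gene content. They differed from the kept length in SETDB1, mapped in 2 libraries of wild-type U937: 12.5 and 13.3 SETDB1 peaks per Mb in the openings against 2.95 and 3.32 per Mb in the kept length. Autosomal 10 kb bins unmarked in all 4 libraries, described below, were close to the openings, at 11.03 and 11.33 per Mb. H3K9me3 domains covered 40.0% and 36.4% of the openings in sgControl and 24.4% and 24.3% in SKO, against 63.1% and 61.3% of the kept length in sgControl and 36.0% and 35.6% in SKO.

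Chromosome 18 had the largest ratio of domain numbers. Its domain count was 217 and 206 in sgControl and 466 and 499 in SKO, 2.28 times as many by group means, while its covered length was 45.0 and 45.4 Mb against 42.8 and 42.2 Mb. Of the control domains in 10 or more pieces, 5 to 8 lay on chromosome 18, of 10 to 15 in each pairing with SKO, and there was no such domain between the control replicates. Single domains were ranked in sgControl replicate 1 only. Its domain in most pieces, chr18:33324001-34332000 (hg38), was called in 1 piece in the other control and in 21 pieces in each SKO library, with 77.7% and 71.5% of it still covered. It spans CCDC178, ASXL3, of a family that partners the Polycomb deubiquitinase, and NOL4. Domain cover of the NOL4 body was 100% in each control and 64.9% and 56.6% in SKO.

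The domain at chr18:43719201-44979200 lay in 12 and 14 pieces and holds SETBP1, a SET-binding gene mutated in myeloid disease, whose cover was 77.0% and 80.5% in sgControl and 43.0% and 49.0% in SKO. Outside chromosome 18, the most divided domain of sgControl replicate 1 was chr10:404801-783200 with DIP2C, in 11 and 12 pieces. The 140 openings of chromosome 18 held 4.23 and 3.52 SETDB1 peaks per Mb (6 and 5 peaks), against 13.4 and 14.3 per Mb in the openings of the other autosomes. H3K9me3 covered 61.9% and 60.2% of them in sgControl and 9.69% and 8.68% in SKO. The kept length of chromosome 18 held 1.92 and 2.35 SETDB1 peaks per Mb, against 2.95 and 3.32 in the kept length of all autosomes. Its H3K9me3 cover was 78.8% and 77.9% in sgControl and 25.3% and 24.4% in SKO, against 62.4% and 60.6% and then 36.5% and 36.1% in the kept length of the other autosomes.

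**Figure D2:**
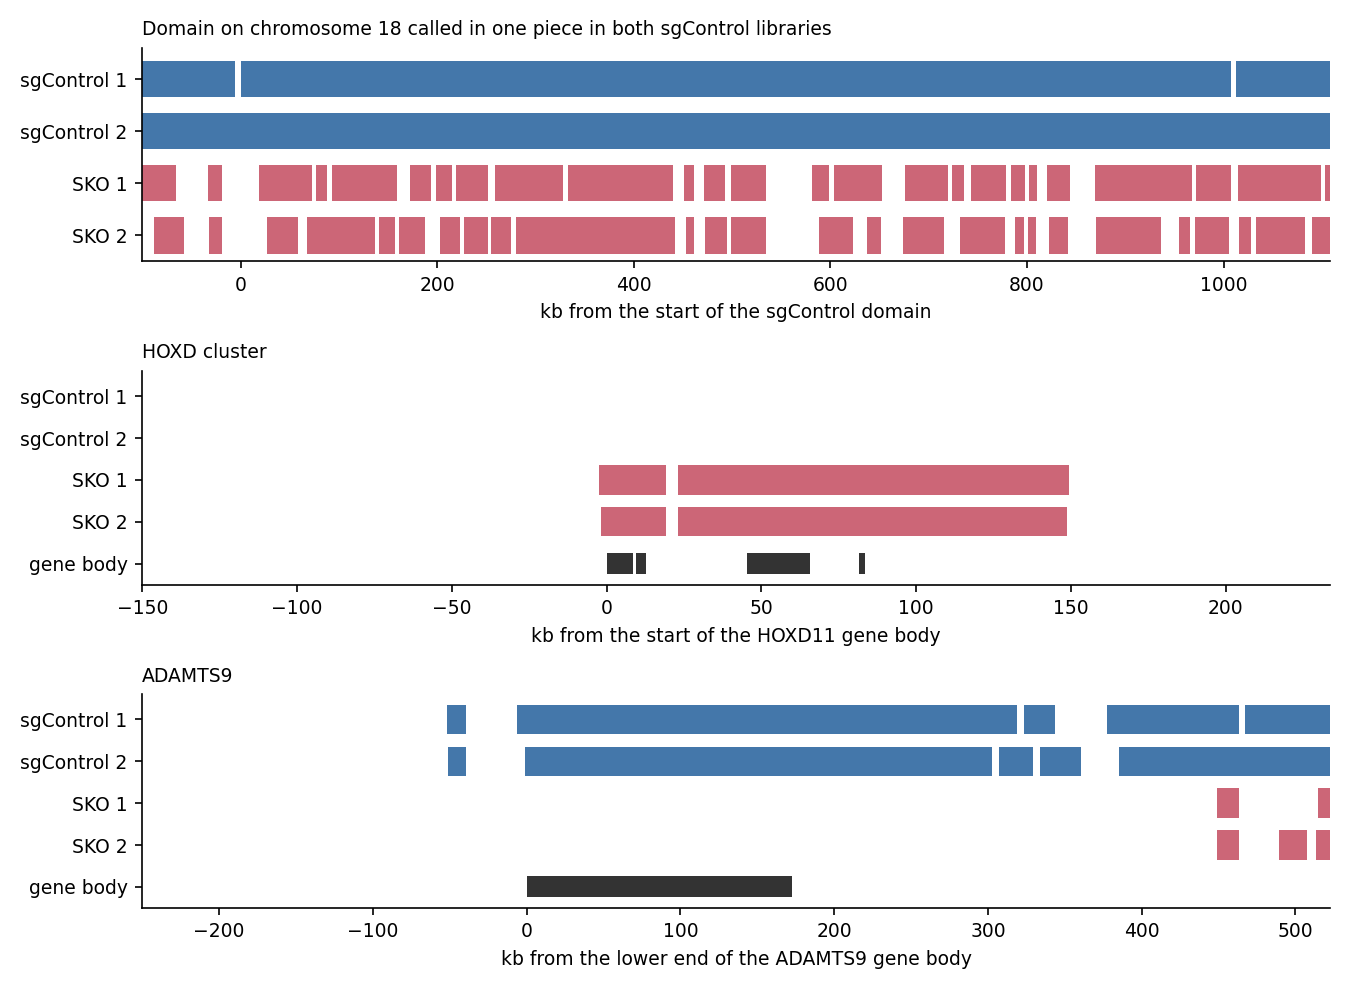
Called H3K27me3 domains (bars) in each library along 3 stretches, with distance in kb on the horizontal axis and gene bodies in dark grey (from left HOXD11, HOXD10, HOXD3 and HOXD1 in the middle panel). The chromosome 18 domain lay in 21 pieces in each SKO library, the HOXD stretch was called in both SKO libraries and in neither control, and the ADAMTS9 stretch was called in both controls and in neither SKO library.

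To place the change, the autosomes were divided into 10 kb bins, and a bin was marked where domains covered at least 50% of it. Bins marked in both controls and both SKO libraries (kept) summed to 877 Mb, bins marked in both SKO libraries and neither control (gained) to 193.8 Mb, and bins marked in both controls and neither SKO library (lost) to 70.1 Mb. The lost length was 7.40% of the length marked in both controls, and the gained length equalled 20.5% of it. As a measure of the spread, 81.7 Mb were marked in 1 control only and 98.7 Mb in 1 SKO library only.

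Gained and lost length were placed differently. Of the gained length, 67.5% (130.8 Mb in 2147 runs of bins) lay in islands with no marked control bin next to them, 23.8% beside control-marked bins on 1 side and 8.63% between such bins. Of the lost length, 44.7% lay beside bins that SKO still marked on 1 side, 29.9% between such bins and 25.4% in islands. Runs of at least 100 kb numbered 459 among the gained and 51 among the lost. Gained bins were poor in genes, with 27.1% of their bases in gene bodies, against 34.4% in kept, 39.3% in lost and 50.0% in unmarked bins.

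The 5 longest gained runs measured 990 to 1290 kb, and 4 of them are described here. That on chromosome 1, chr1:67740001-68730000, holds WLS, which carries WNT ligands to the cell surface, the imprinted gene DIRAS3, the retinal isomerase gene RPE65, DEPDC1 and GNG12. WLS, DIRAS3, RPE65 and DEPDC1 were uncovered in both controls and covered over their full length in both SKO libraries. The other 3 described, on chromosomes 21 and 2, held no protein-coding gene. In sgControl these 4 runs lay in H3K9me3 domains, which covered between 87.5% and 97.5% of each. In SKO the same libraries' H3K9me3 cover ranged from 6.26% of the chromosome 21 run to 45.2% of the chromosome 1 run.

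The longest lost runs were shorter, from 240 to 540 kb. ADAMTS9, a secreted metalloprotease of the extracellular matrix, filled part of the run chr3:64510001-64860000. One domain of 324.8 kb covered it in sgControl replicate 1 and one of 304 kb in replicate 2, with 11403 and 10542 reads, and no domain touched it in either SKO library. H3K9me3 cover of this run was 82.4% and 82.1% in sgControl and 81.7% and 86.9% in SKO.

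Lost and gained bins also differed in the other repressive readouts. H3K9me3 domains held 67.2% and 65.7% of gained bins in sgControl and 36.7% and 36.2% in SKO. Kept bins were close to them, at 63.7% and 62.1% and then 36.2% and 35.8%. Lost bins were lower, at 39.7% and 37.2% in sgControl and 27.2% and 26.8% in SKO. H3K9me3 was itself lost in 21.99% of gained bins, 19.7% of kept bins, 8.74% of lost bins and 2.53% of unmarked bins, shares that count bins without H3K9me3 too. Of the bins with H3K9me3 in both sgControl libraries alone, it was lost in 38.8% of gained, 36.0% of kept, 27.8% of lost and 17.6% of unmarked bins.

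SETDB1 peaks were densest in lost bins, at 16.1 and 16.9 per Mb (1128 and 1182 peaks). Unmarked bins held 11.03 and 11.33, gained bins 3.63 and 3.94, and kept bins 2.97 and 3.31 per Mb. SETDB1 was mapped in wild-type cells, so its occupancy after the knockout was not measured.

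**Figure D3:**
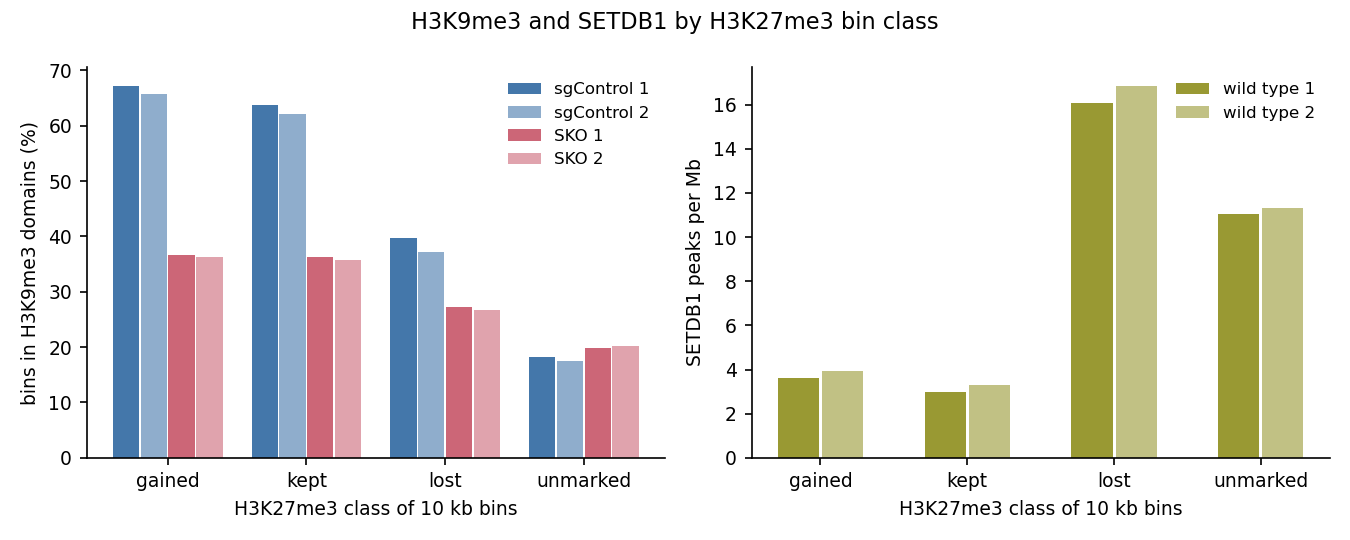
Share of 10 kb bins inside H3K9me3 domains in percent (left, 1 bar per library) and SETDB1 peaks per Mb in wild-type cells (right, 1 bar per library), by H3K27me3 bin class. Lost bins carried less H3K9me3 in sgControl than gained or kept bins and more SETDB1 peaks than any other class shown.

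The balance of gain and loss differed between chromosomes. Covered length was larger in both SKO libraries than in both controls on 12 of the 22 autosomes and smaller on the other 10. Chromosome 21 went from 13.6 and 13.4 Mb to 18.2 and 18.1 Mb, and chromosome 5 from 57.6 and 57.4 Mb to 73.1 and 72.4 Mb. Chromosome 22 went from 6.25 and 6.17 Mb to 4.28 and 4.34 Mb, and chromosome 17 from 16.5 and 16.8 Mb to 13.9 and 13.7 Mb. The share of control-marked length that was lost reached 29.0% on chromosome 19, 24.8% on chromosome 22 and 20.8% on chromosome 17, against 1.71% on chromosome 13.

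Domain numbers followed another order: they were larger in both SKO libraries on 20 autosomes and smaller on chromosome 22. Read density of the domains over kept bins also varied by chromosome. Each kept bin was given the mean density of the whole domain over its midpoint, scaled to in-domain reads, and the chromosome median was taken. This density is thus not that of fixed bases and moves with the width at which each library called the domain. Expressed as SKO over sgControl and relative to the median chromosome, it ranged from 0.880 on chromosome 16 and 0.903 on chromosome 18 to 1.09 on chromosomes 2 and 6. Across the 22 chromosomes this ratio went with the covered-length ratio (r = 0.694, rho = 0.737) and hardly with the ratio of domain numbers (r = -0.151, rho = -0.050). Each point shares its libraries with all others, and density and covered length come from the same reads, so the part of density in the covered length was not tested.

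**Figure D4:**
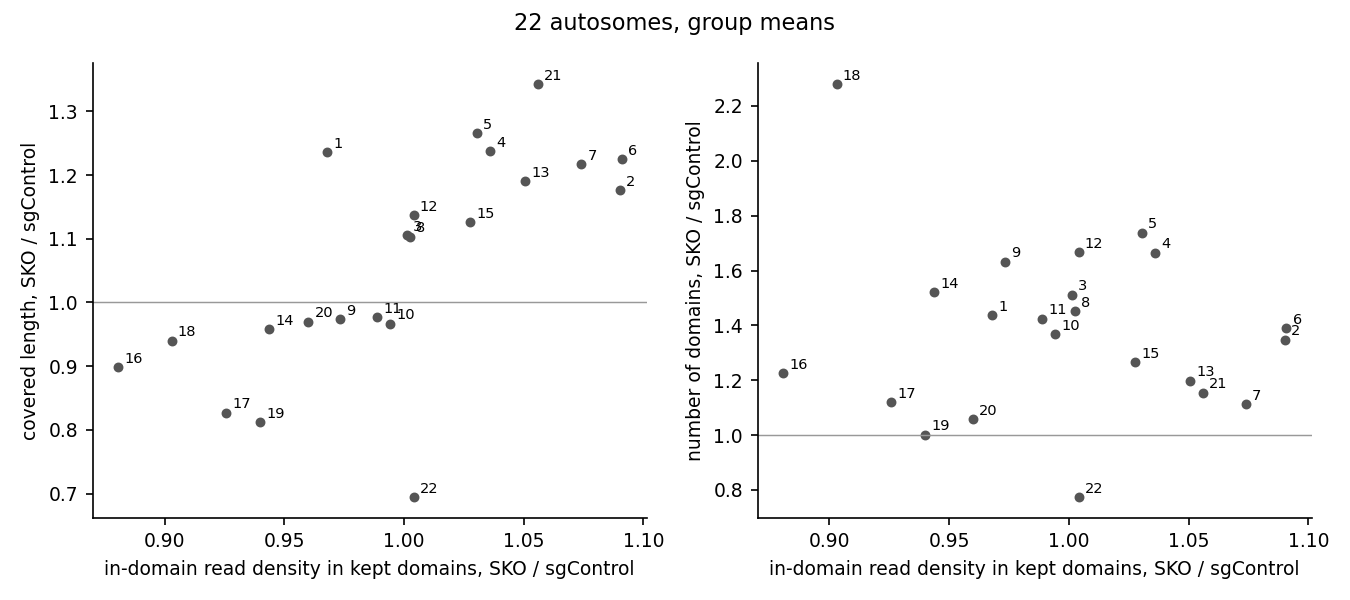
Ratio of covered length (left) and of domain number (right), SKO over sgControl by group means, 1 labelled point per autosome. The horizontal axis is the ratio of the read density of whole domains over kept bins, relative to the median chromosome. Chromosome 18 stands at 2.28 times the domains with a covered-length ratio of 0.940, and chromosome 22 is lowest on both vertical axes.

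Read counts were compared over the 4640 merged regions that held a domain in all 4 libraries. In edgeR's quasi-likelihood test with Benjamini-Hochberg adjustment and TMM normalization, 1269 regions rose (27.3% of those tested) and 1172 fell (25.3%). Counts in such regions sum reads over the called part, so they move with the length called as well as with its density. With counts per kb covered instead, 2189 rose and 591 fell. The largest rise in summed counts, not per kb, was in the region of HOOK1, CYP2J2 and C1orf87 (chr1:59783201-60866400). It had 599 and 1051 reads in sgControl and 83426 and 71307 in SKO (log2 ratio 6.42 ± 0.21 SE, edgeR adjusted p = 4.19e-05). Domains covered 20 and 38.4 kb of it in sgControl and 1079 and 1069 kb in SKO, so this is a ratio of reads summed over unequal called lengths, with reads outside domains missing, and not a fold of the mark at fixed bases. Next was the region of ARRDC4 on chromosome 15 (log2 ratio 6.41 ± 0.47, adjusted p = 0.00051). The regions of PLCL1, CA8 and ROR1 followed, at log2 ratios of 6.19, 5.96 and 5.50.

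The largest fall was a stretch without a protein-coding gene, chr12:3874401-4242400, with 19595 and 18718 reads in sgControl and 635 and 500 in SKO (log2 ratio -5.21 ± 0.05 SE, adjusted p = 3.39e-06). The region of CLDN14, a tight junction claudin, followed with 7292 and 6903 reads against 591 and 407 (log2 ratio -3.97). Those of RAB38, a GTPase of pigment granules, and SSUH2 had log2 ratios of -3.58 and -3.51.

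Genes were scored by the percentage of the gene body under called domains. A gene was called gained or lost where both SKO libraries lay at least 25 percentage points above or below both controls. Of 19126 autosomal protein-coding genes, 586 were gained (3.06%) and 617 were lost (3.23%). Gained genes were longer, with a median body of 64.0 kb against 25.3 kb for lost genes and 37.1 kb for genes kept. The gained genes included 441 that were free of the mark in both controls, and 344 of the lost genes became free of it in both SKO libraries. limma, run on the 4500 genes marked in any library, found 636 genes higher (14.1%) and 765 lower (17%) at an adjusted p below 0.05. Both criteria were met by 510 gained and 493 lost genes. On simulated data limma made more false calls than its nominal rate, so its adjusted p values, here and below, are only given beside the 25-point rule. With a replicate block limma called 408 genes higher and 397 lower. Without sgControl replicate 1 limma found 509 higher and 2030 lower, and without sgControl replicate 2 it found 508 and 2064, with the lone control assumed to vary like the SKO pair.

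Limma's standard error for a gene at 0%, 0%, 100% and 100% rests on the spread of other genes, since its own replicates do not differ, and its adjusted p of 1.94e-08 is shared by all genes without spread that moved over the full range. In all, 154 genes went from 0% in both controls to 100% in both SKO libraries. The 15 with the longest bodies were C1orf87, WLS, ADGRL2, MROH9, DCHS2, GUCY1A1, CDH6, ADGRG6, ABCB5, GNAI1, TSPAN12, ELMOD1, KITLG, GLCE and HUNK. KITLG is the ligand of the stem cell receptor KIT, GUCY1A1 a subunit of the nitric oxide receptor, GNAI1 an inhibitory G protein and GLCE an enzyme of heparan sulfate synthesis. In the other direction, 126 genes went from 100% in both controls to 0% in both SKO libraries. The 15 with the longest bodies were PDPN, SDC1, LBH, ADAMTS9, C8orf88, BTBD16, TRIM29, KIF26A, NPHS1, ZNF382, CEACAM1, NOVA2, IGFL4, ZNF534 and CRYBB2. PDPN (podoplanin), SDC1 (the syndecan CD138) and CEACAM1 encode cell surface proteins, NPHS1 the nephrin of the kidney filter and NOVA2 a neuronal splicing factor.

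To show what kind of start sites lay in such stretches, 4 promoters are printed, each the 250 bases before the RefSeq start (GRCh38.p14), 5′ to 3′ on the gene's strand, with every CpG in capitals. They were chosen after their values were seen, 1 CpG-rich and 1 CpG-poor in each direction. HOXD10 (chr2:176116528-176116777, plus strand, 23 CpG) and IFI44L (chr1:78620198-78620447, plus strand, no CpG) were covered over these bases at 0% in both controls and 100% in both SKO libraries. HAND1 (chr5:154478228-154478477, minus strand, 16 CpG) and NPHS1 (chr19:35852505-35852754, minus strand, 4 CpG) were covered at 100% in both controls and 0% in both SKO libraries.
HOXD10: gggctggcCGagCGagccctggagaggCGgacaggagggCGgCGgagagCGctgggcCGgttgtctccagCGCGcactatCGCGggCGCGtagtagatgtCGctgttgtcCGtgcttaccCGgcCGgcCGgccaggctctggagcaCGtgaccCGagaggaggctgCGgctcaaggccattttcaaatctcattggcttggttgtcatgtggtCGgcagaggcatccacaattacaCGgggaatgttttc
IFI44L: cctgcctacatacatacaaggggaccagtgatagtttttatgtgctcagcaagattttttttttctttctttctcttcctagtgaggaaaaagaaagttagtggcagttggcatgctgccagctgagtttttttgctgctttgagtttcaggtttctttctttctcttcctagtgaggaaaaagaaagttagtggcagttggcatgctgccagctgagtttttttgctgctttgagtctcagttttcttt
HAND1: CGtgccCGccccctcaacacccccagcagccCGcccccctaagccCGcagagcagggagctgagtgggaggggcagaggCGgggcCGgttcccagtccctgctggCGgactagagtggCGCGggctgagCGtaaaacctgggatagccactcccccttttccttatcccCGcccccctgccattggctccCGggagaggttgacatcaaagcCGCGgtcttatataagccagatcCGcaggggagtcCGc
NPHS1: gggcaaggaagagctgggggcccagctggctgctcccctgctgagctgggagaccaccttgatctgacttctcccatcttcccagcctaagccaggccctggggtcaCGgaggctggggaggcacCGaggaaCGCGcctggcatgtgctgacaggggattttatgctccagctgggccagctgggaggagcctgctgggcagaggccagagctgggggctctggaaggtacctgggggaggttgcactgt
Of the 27305 promoters of the table, 93.6% held at least 1 CpG in these 250 bases, with a median of 11. A promoter was listed for 79.0% of the autosomal genes, 77.5% of the gained and 72.6% of the lost, which is under the 80% needed, so a comparison of CpG content between gained and lost genes was void.

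Developmental regulators were called in both directions. The list counts from here on stand beside 3.06% gained and 3.23% lost among all autosomal genes, and no list was tested against these shares. Only a gene marked in some library can be called, and 4500 of the 19126 autosomal genes were. Among the lists, 9 of 39 HOX genes and 65 of 75 neuronal adhesion and guidance genes were so marked. The called share of a list thus depends on how many of its members are marked. List counts by limma stand beside 14.1% higher and 17% lower of the 4500 marked genes. The HOX genes, which specify position along the body axis, were unmarked in U937 controls apart from HOXC13 (100% in both) and HOXB9 (100% and 0%). In SKO, 7 of 39 were gained and none was lost. All 7 belong to the HOXD cluster: HOXD1, HOXD3, HOXD4, HOXD9, HOXD10 and HOXD11 went from 0% in both controls to 100% in both SKO libraries, and HOXD8 from 0% to 76.7% in each. They lay under 2 adjacent domains, chr2:176104801-176126400 and chr2:176130401-176256800 in SKO replicate 1, with 1751 and 11405 reads, so they count as 1 stretch and not as 7 independent genes. HOXD12 and HOXD13 stayed at 0% in all 4 libraries. H3K9me3 covered 100% of the HOXD3 and HOXD10 bodies in both sgControl and both SKO libraries.

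Homeobox regulators outside the HOX clusters had 8 gained and 7 lost of 103 (7.77% and 6.80%). Among the gained, POU4F2, a retinal ganglion cell factor, SIX6 and OTX2, eye and forebrain factors, and DLX5, a factor of bone and forebrain, went from 0% in both controls to 100% in both SKO libraries. Among the lost, LHX5 went from 100% to 0% in each library. TLX3 stood at 100% in both controls and at 0% and 12.2% in SKO (difference -93.9 ± 5.7 SE, limma adjusted p = 0.00954), and HMX1 at 100% against 41.6% and 22.4% (adjusted p = 0.0391). MSX1, called lost at 0% and 54.7%, did not pass limma (adjusted p = 0.205).

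In the SOX, FOX, TBX, ZIC, PAX, GATA and bHLH list, 1 gene was gained and 12 were lost of 92, with mean cover of 42.7% in sgControl and 33.4% in SKO. NEUROD1, a neuronal and endocrine factor, HAND1, a cardiac and trophoblast factor, and MYOD1, the muscle determination factor, went from 100% in both controls to 0% in both SKO libraries. SIM2 had 74.0% and 85.2% in sgControl and 0% in both SKO libraries (adjusted p = 0.0111). The gained member was TBX20, a cardiac factor, at 22.6% and 25.7% against 87.6% and 100% (difference 69.6 ± 6.0 SE, adjusted p = 0.0179). By limma, 1 member rose and 9 fell.

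Signalling genes of the WNT, BMP, FGF, Hedgehog and Notch pathways had 6 gained and 6 lost of 96. At equal covered length 5 were gained and 10 lost. The ligands WNT2 and GDF6 went from 0% in both controls to 100% in both SKO libraries, and FGF5 from 2.53% and 0% to 100% in each. The receptors ROR1 (6.09% and 8.64% against 100% in each) and LGR5 (0% against 87.5% and 91.8%, adjusted p = 0.00146) were also gained. In the other direction, the WNT receptor FZD8 went from 100% in both controls to 3.80% in both SKO libraries. The ligands FGF4, with 100% against 0% and 22.7%, and BMP4, with 100% against 21.7% and 9.29% (difference -84.5 ± 5.8 SE, adjusted p = 0.0121), were lost too. GLI2, a Hedgehog effector, was called gained at 31.5% and 48.3% against 92.9% and 86.6%, with a limma adjusted p of 0.0587.

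Genes of cell adhesion and neuronal wiring were called in both directions. In the neuronal adhesion and guidance list 11 were gained and 2 lost of 75. The guidance ligand SEMA3C went from 0% in both controls to 97.8% and 100% (adjusted p = 0.000306), and NTN4, a netrin, from 0% to 91.6% and 69.4% (adjusted p = 0.0372). The adhesion gene CNTNAP4 had 18.6% and 21.8% against 95.8% and 94.6%. EPHB2, an ephrin receptor, was lost, with 87.5% and 94.7% against 28.4% and 36.5% (difference -58.6 ± 5.0 SE, adjusted p = 0.018). This list was already widely marked, with mean cover of 63.5% in sgControl and 69.6% in SKO, and by limma 14 members rose and 10 fell. The median difference over the list was -0.43 percentage points, and at equal covered length 10 were gained and 6 lost.

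Glutamate and GABA receptor genes had 5 gained and 2 lost of 43, and at equal covered length 5 gained and 6 lost. GABRA4 went from 0% to 100% and 94.6% and GRIA2 from 0% to 71.8% and 69.9%, whereas GABRD went from 100% to 0%. Potassium channel genes had 2 gained and 7 lost of 93 (2.15% and 7.53%). KCNG1 had 100% in both controls and 10.0% in both SKO libraries, and KCNA6 67.4% and 75.1% against 0% (adjusted p = 0.00674). KCND2 was gained at 36.2% and 36.0%.

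Cadherins outside the protocadherins had 5 gained and 3 lost of 43, and at equal covered length 3 gained and 6 lost. The desmosomal cadherin DSC1 went from 0% to 100% and 88.1% (adjusted p = 0.0091), while the giant cadherin FAT1 went from 72.1% and 90.6% to 0% (adjusted p = 0.0265) and CDH5, the endothelial cadherin, from 52.5% and 55.9% to 0% (adjusted p = 0.00249). Among the 53 clustered protocadherins 1 was lost, PCDHB11, at 100% against 13.9% and 0% (adjusted p = 0.0125).

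Matrix genes moved both ways. Collagen and laminin genes had 9 gained and 6 lost of 54. The basement membrane laminin LAMA4 went from 0% to 100% and 98.3% and COL8A1 from 0% to 93.5% and 92.5%, while the fibrillar collagen COL5A1 went from 97.6% and 100% to 40.6% and 36.6% (difference -60.2 ± 2.1 SE, adjusted p = 0.00357). ADAM, ADAMTS and MMP proteases had 4 gained and 6 lost of 66. ADAMTS5, an aggrecanase, was at 0% in sgControl and at 95.3% and 92.1% in SKO. ADAMTS2, which trims procollagen, was at 89.1% and 82.0% against 18.9% and 13.8% (adjusted p = 0.00918).

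Large tandem families were examined next. Keratins and keratin associated proteins, the structural proteins of skin and hair, had 2 gained and 24 lost of 149, and their mean cover was 54.3% (SD 0.07, n = 2) in sgControl and 37.4% (SD 1.8, n = 2) in SKO. KRT9, KRT14, KRT33A and KRTAP10-1 went from 100% in both controls to 0% in both SKO libraries. KRT26 went the other way, from 0% to 100%. By limma, 1 member rose and 19 fell. Members sit side by side in a few clusters and share domains, and 20.8% of the control-marked length of chromosome 17, where the type I keratins lie, was lost.

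Zinc finger genes of chromosome 19, many of them KRAB repressors of transposable elements, had 12 gained and 35 lost of 258, with mean cover of 27.1% in sgControl and 20.3% in SKO. ZNF382, ZNF534, ZNF613 and ZNF836 went from 100% in both controls to 0% in both SKO libraries. ZNF85 went from 0% to 100%, and ZNF91, a repressor of retrotransposons, from 0% to 76.1% and 80.5% (difference 78.3 ± 2.1 SE, adjusted p = 0.00197). H3K9me3 covered 100% of ZNF382, ZNF534, ZNF613, ZNF836 and ZNF85 in both sgControl and both SKO libraries. By limma, 9 members of this list rose and 29 fell, and 29.0% of the control-marked length of the whole chromosome was lost. At equal covered length 9 members were gained and 41 lost. With only the upper 50% of domains by score kept, 13 were gained and 16 lost.

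Zinc finger genes of the other autosomes had 7 gained and 25 lost of 278 (2.52% and 8.99%), the gained share being near that of all autosomal genes. ZNF501, ZNF502 and ZNF300 went from 100% to 0% with H3K9me3 at 100% in all 4 libraries, while ZNF311 went from 100% to 0% together with its H3K9me3, from 100% in both sgControl to 0% in both SKO libraries. ZNF827, at 0% in sgControl, had 85.9% and 81.9% in SKO (adjusted p = 0.00139). Olfactory receptors had 23 gained and 15 lost of 391 (5.88% and 3.84%), around a mean cover of 66.0% in sgControl and 67.3% in SKO. At equal covered length their balance turned, with 16 gained and 23 lost.

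**Figure D5:**
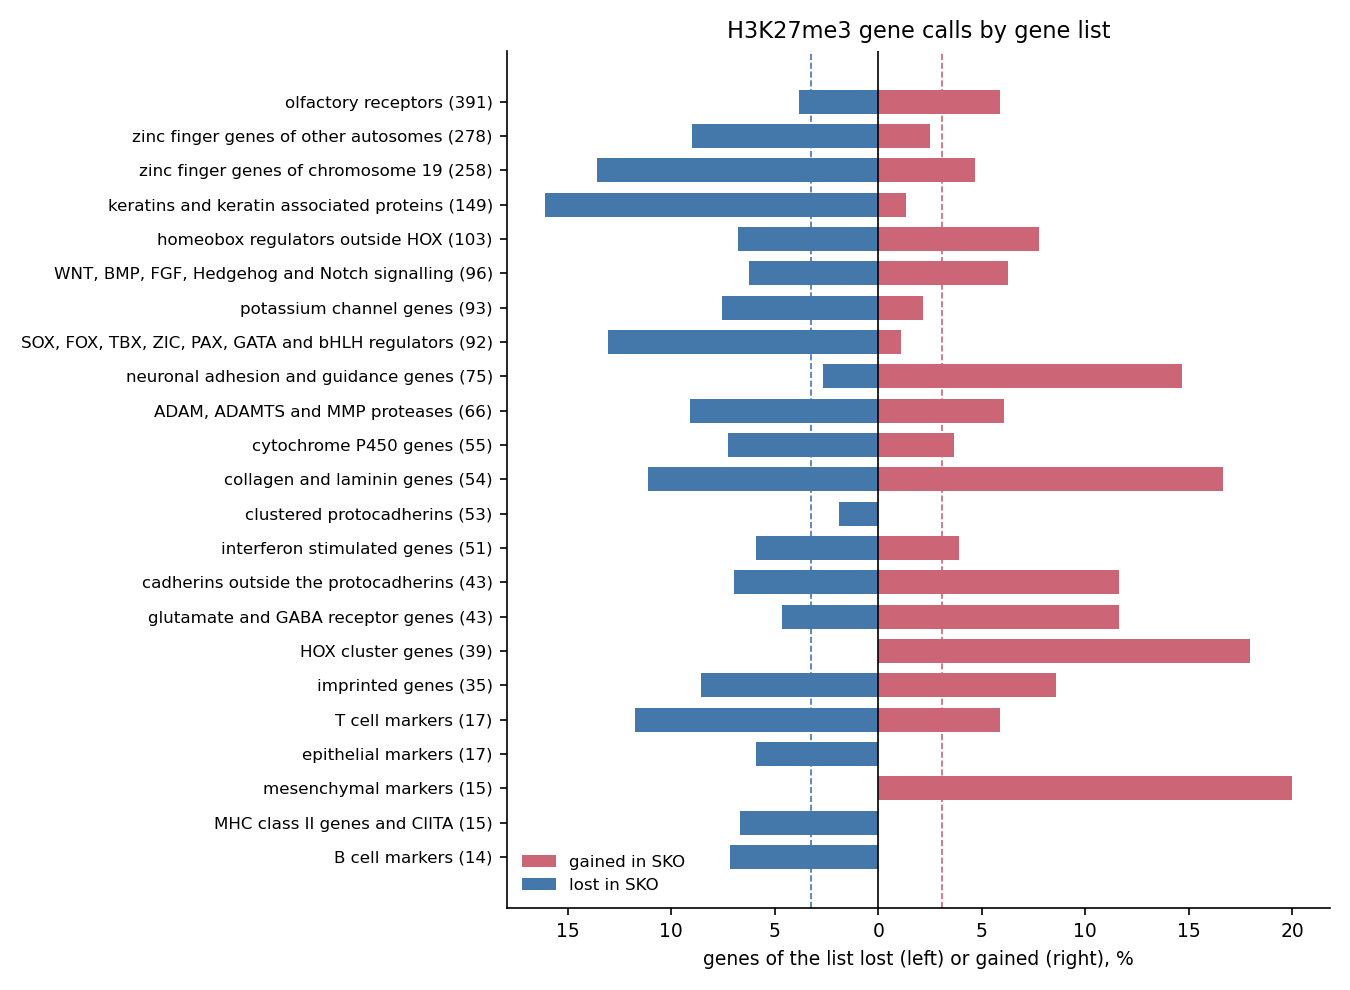
Percentage of each gene list called gained (right) or lost (left) in SKO, with the number of members in brackets and dashed lines at the shares over all autosomal genes (3.06% gained, 3.23% lost). Lists without a called member are not drawn, and the smallest lists rest on 1 to 3 genes. Bars and dashed lines count genes unmarked in every library too, and the lists differ in how many members are marked.

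Smaller lists added single genes. Cytochrome P450 genes had 2 gained and 4 lost of 55 (3.64% and 7.27%), the gained share being near that of all autosomal genes. CYP7B1, an oxysterol hydroxylase, was at 0% and 10.9% against 98.1% and 100%, and CYP3A4, a drug-metabolising enzyme, at 59.5% in both controls and 0% in SKO. Imprinted genes had 3 gained (DIRAS3, WT1 and ZDBF2) and 3 lost (SLC22A2, SLC22A3 and IGF2) of 35. SLC22A2 and SLC22A3, neighbouring cation transporters, had 86.7% and 77.2%, and 72.2% and 64.5%, in sgControl and 0% in SKO. Their H3K9me3 cover was between 82.9% and 100% in all 4 libraries.

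Interferon stimulated genes had 2 gained and 3 lost of 51 (3.92% and 5.88%, near the 3.06% and 3.23% of all autosomal genes). Of these 51, 42 were free of the mark in all 4 libraries, as were 14626 of all 19126 autosomal genes. IFI44L went from 0% in both controls to 100% in both SKO libraries, and its neighbour IFI44 from 0% and 22.9% to 100% (adjusted p = 0.0335). OAS2, an activator of RNase L, was at 47.4% and 49.8% in sgControl and 0% in SKO (difference -48.6 ± 1.1 SE, adjusted p = 0.00153), and ISG20, an exonuclease, at 56.0% and 59.9% against 13.8% and 9.99%. MX1 was called lost at 80.7% and 35.2% against 0% without passing limma (adjusted p = 0.22). None of 20 nucleic acid sensing genes was called in either direction. Of 15 genes of MHC class II and CIITA, HLA-DPA1 was called lost, at 100% in both controls against 39.2% and 0% (adjusted p = 0.101).

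The gene for the enzyme knocked out, SUV39H1, lies on chromosome X, so its own body was not in this comparison and domain lists give no check of its loss. SUV39H2 and the core genes of Polycomb repressive complex 2, EZH2, EED and SUZ12, were at 0% H3K27me3 in all 4 libraries. None of 37 Polycomb and H3K27 eraser genes and none of 25 H3K9 methylation genes was called, beside 3.06% gained and 3.23% lost of all autosomal genes. All 11 cell cycle inhibitors and all 18 housekeeping genes were free of the mark in all 4 libraries, as were 14626 of all 19126 autosomal genes.

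Markers of myeloid and other cell types were looked up in the same lists. Of all 19126 autosomal genes, 14626 were free of H3K27me3 in all 4 libraries. Of 28 myeloid markers, 27 were free of H3K27me3 in all 4 libraries, among them SPI1, CEBPA, CSF1R, CD33, CD14, ITGAM, LYZ, MPO, ELANE, PTPRC, TYROBP and S100A9. S100A8 had 49.7% and 52.2% in sgControl and 49.7% in each SKO library. Also free in all 4 libraries were 14 of 17 epithelial, 11 of 14 B cell and 12 of 17 T cell markers. The same held for 12 of 19 erythroid and megakaryocyte and 7 of 15 mesenchymal markers, so these counts do not by themselves identify the line as myeloid. Of markers of other cell types, HBB and TWIST1 were covered at 100% in all 4 libraries, whereas CD3E, CD3D, PAX5, MS4A1, EPCAM, CDH1 and KRT8 were at 0%, so absence of this mark does not by itself show a gene in use.

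In the marker lists of other cell types the counts were too small to be read against the 3.06% gained and 3.23% lost of all genes, and the called genes are given singly. T cell markers had 1 gained and 2 lost of 17. LEF1, a WNT effector of T cell progenitors, went from 0% in both controls to 95.0% and 96.3% (difference 95.7 ± 0.61 SE, adjusted p = 0.000106). GATA3 had 70.5% and 62.5% against 0% (adjusted p = 0.00836), and BCL11B 46.1% and 56.9% against 0% (adjusted p = 0.0234). RAG1 was the 1 lost of 14 B cell markers, at 87.3% and 75.7% against 31.9% in each SKO library (adjusted p = 0.0277). Mesenchymal markers had 3 gained of 15 and none lost. PDGFRA was at 0% against 49.9% and 55.5% (adjusted p = 0.00659) and DCN, a matrix proteoglycan, at 0% against 81.1% and 90.6% (adjusted p = 0.00707), whereas LUM at 54.9% and 100% did not pass limma (adjusted p = 0.136).

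At gene level, H3K9me3 was lost in 96 of the 586 gained genes (16.4%), in 81 of the 617 lost genes (13.1%) and in 423 of the 2143 genes that kept H3K27me3 (19.7%). It was lost in 1.28% of the 14626 genes free of H3K27me3 and in 7.54% of the remaining 1154. These shares count genes without H3K9me3 too, and the classes began at unequal cover. Mean H3K9me3 cover in sgControl was 53.8% and 51.3% in gained, 35.9% and 33.1% in lost and 64.7% and 61.7% in kept genes. Genes that gained H3K27me3 could keep their H3K9me3, as MROH9 did (100% and 93.8% in sgControl and 90.4% and 96.3% in SKO), or lose it, as ABCB5 did (97.2% and 85.8% against 0%), or lack it throughout, as ELMOD1 did at 0% in all 4 libraries. The same held among lost genes: NPHS1, KIF26A, TRIM29 and HAND1 were at 0% H3K9me3 in all 4 libraries, and CEACAM1 went from 64.2% and 52.9% to 0%.

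The DKO libraries, which were compared with the same sgControl samples and so are given beside SKO without a test, held 13687 and 14279 domains over 1148 and 1124 Mb. HOXD10, WLS, WNT2 and IFI44L were at 100% in both DKO libraries, and NPHS1, SDC1, ADAMTS9 and HAND1 at 0%. By contrast ZNF534, ZNF501 and PCDHB11, lost in SKO, were at 100% in both DKO libraries, and MYOD1 was at 100% in DKO replicate 1 and 0% in replicate 2. DLX5, at 100% in both SKO libraries, had 45.2% and 81.3% in DKO.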

How the data were processed

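The authors' deposited domain lists give, per the file headers, for each library the position of every H3K27me3 domain called with epic2 on hg38, a whole-number read count and a score. The submitters' processing notes name Trim Galore 0.6.10, FastQC 0.12.1, deepTools 3.5.6 and SICER 0.052, and the builds hg38 and dm6. No aligner, caller setting, use of input or spike-in scaling can be named, as not given in the sources used here. Neighbouring domains in one list lie at least 4000 bp apart on an 800 bp grid, and the lists hold no reads outside domains, so library depth is unknown beyond the in-domain totals. Per the deposited SETDB1 peak files of wild-type cells, each peak has a −log10 p and q value and a score; only its summit was used.

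Groups came from the sample titles. Bins of 10 kb, gene bodies (RefSeq, GRCh38.p14, 22 autosomes) and merged regions were computed with Python 3.11.15, pandas 2.3.3 and numpy 2.4.6. Region counts were tested with edgeR 4.0.16 (DESeq2 1.42.0 as alternative), gene percentages with limma 3.58.1 without a pseudocount. Both were tested on simulated data, where limma made more false calls than its nominal rate, so the 25-point rule was kept as the main call. The text names the 15 genes in each direction with the largest difference (call rule and limma, body of at least 10 kb, ties in difference broken by the longer body), all called members of a list where there are at most 6 in a direction and otherwise the first 4, genes of the 5 longest runs and 5 most divided domains, the markers, and the 5 regions with the largest rise and fall. The most divided domains were taken from sgControl replicate 1 only. The printed promoters and HOXD4, HOXD8, HOXD9, HOXB9, HOXC13, HOXD12 and HOXD13 were named after their values were seen. The comparison, the gene lists and their members were chosen with earlier results of these data known. The alternatives tried are given in the closing section. Some genes that the naming rule picked are not reported here. Chromosomes X and Y were left out of the main comparison.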

Additional observations from a re-analysis of the deposited data

Results flagged for a closer look

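Chromosome X was outside the autosomal comparison. H3K27me3 domains there covered 68.1 Mb in SKO replicate 1 and 67.1 Mb in SKO replicate 2, above the 35.8 and 35.7 Mb of the sgControl libraries. The mean was 1.89 times that of sgControl, against 1.11 times on the autosomes, and the DKO mean was 75.7 Mb. The cause was not tested.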

How the results depend on the processing

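Of 140 alternative values for the comparison results, 108 stayed within the spread or within 1.5 times, 31 moved and 1 reversed. The cause was not tested where none is given. With the lists cut to equal covered length, which drops more of the low scored SKO domains, the difference in domain number reversed to -2107.5, the N50 difference was -44 kb, split domains held 45.2% of the control length, the lost length was 130.8 Mb, gained length in islands 66.3%, lost length between marked bins 14.1%, and H3K9me3 lay in 54.0% of gained and 20.9% of lost bins. Keeping the upper 50% of domains by score gave a difference of 92.4 Mb in covered length and 2198 in domain number. Joining domains over gaps under 8 kb gave 2041 more domains in SKO and an N50 lower by 164.8 kb (a difference of -164.8 kb), and over gaps under 16 kb 1055 more domains, an N50 difference of -173.2 kb and 40.2% of control length split. With chromosome X the difference in covered length was 145 Mb. With 5 kb bins, 74.6% of the gained length lay in islands and 24.3% of the lost length between marked bins, and with 50 kb bins SETDB1 density in lost bins was 5.01 times that in kept bins, against 5.25 times. A threshold of 50 percentage points gave 341 lost genes, and a 1 kb window at known gene starts 294 gained and 350 lost genes. Reads per kb covered gave 2189 regions higher and 591 lower, and scaling by total in-domain reads 924 and 1615.

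Leaving out each library in turn gave 64.3% to 65.9% of the gained length in islands and 30.0% to 35.2% of the lost length between marked bins. It gave 3884.5 to 4907.5 more domains in SKO, 622 to 650 gained and 699 to 745 lost genes, 1032 to 1172 regions higher and 960 to 1113 lower. limma gave 508 to 682 genes higher and 670 to 2064 lower. In the leave-one-out fits the lone library was assumed to vary like the other group. The 25-point rule compares the nearest libraries of the 2 groups, so leaving out a library can only keep or add gene calls. The rise in gained and lost genes was thus fixed by the rule, and no called gene could lose its call. Of the 163 called genes picked by the naming rule, 25 lost their call with the upper 50% of domains and 8 at equal covered length.

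The labels do not say that equal replicate numbers mark a shared batch, and the deviations of same-numbered libraries correlated at r = 0.058 over 4500 genes. With a replicate block limma called 408 genes higher and 397 lower against 636 and 765, and edgeR with the replicate block called 1197 regions higher and 1134 lower. Leaving out chromosome 18, an alternative chosen after seeing the data, gave 4125 more domains, 55.4% of control length split and 578 gained and 603 lost genes. Comparisons of 2 libraries against 2, unknown depth outside domains and unknown spike-in scaling limit all of these values.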
